A study of Mus musculus with 8 samples.

Results

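C-type lectin receptors are surface proteins that bind sugars and other ligands through a shared fold, and their genes are followed here in dendritic cells that were derived from mouse bone marrow. The genes were taken by name: every gene with a probe set of its own on the array whose symbol begins with Clec and a digit or with Cd209, plus Mgl2, Mrc1 and Ly75. That gave 40 genes out of 22180 with a single-symbol probe set, read by 42 probe sets, and a gene with more than 1 was represented by its brightest on average. All cells were wild-type C57BL/6 cells from female mice, cultured for 7 days with GM-CSF (20 ng/ml) at 21% oxygen and selected on CD11c beads to over 98% purity. Both groups then spent 2 days at 2% oxygen with GM-CSF. The SCF group next received stem cell factor (SCF, 100 ng/ml), the ligand of the receptor Kit, for 6 hours, and the medium group did not. The procedure was run 4 times, as experiments BC, D2, E and I, so that each experiment gave 1 medium and 1 SCF array from 1 preparation of cells, 8 arrays in all. Cells grown in GM-CSF are a laboratory model that mixes dendritic and macrophage features, and the labels name no clone, pooled animals or transgene.

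Dendritic cells use C-type lectins to take up antigen and to sense fungi, mycobacteria and dying cells. Some, such as Dectin-1, carry an activating motif or pair with the adaptors encoded by Fcer1g and Tyrobp, and signal through the kinase Syk and the CARD9, BCL10 and MALT1 complex. Others carry an inhibitory motif that recruits the phosphatases encoded by Ptpn6 and Ptpn11, while receptors such as the mannose receptor and DEC-205 mainly internalise their ligands. Names do not settle function here: Clec11a, Clec3a, Clec3b and Clec18a encode secreted proteins, and Clec16a encodes an intracellular protein of endosomal traffic and mitophagy, so not every gene of the name-based set is a receptor. Clec9a, the receptor for exposed actin filaments on cross-presenting dendritic cells, has no probe set of its own. The probe set that it shares with Clec1b averaged a log2 intensity of 5.18 and cannot be assigned to either gene.

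The deposited values are probe set intensities without a detection call, and 22 of the 40 genes reached the intensity filter used before testing, a mean log2 intensity of 4.05 over the 8 arrays. That filter is the median of all probe sets with a symbol, so as many of them lie above it as below. Reaching it does not show that a gene is expressed. The mean level of those 22 ran from 4.06 for Clec4g to 10.38 for Clec4n. Above 8 were Clec4n, Clec7a, Ly75 and Clec2d. A further 12 genes lay between 6 and 8 (Clec2i, Clec4a3, Mgl2, Clec16a, Clec4d, Clec12a, Cd209a, Clec4e, Mrc1, Clec10a, Clec5a and Clec2l), and 6 lay below 6 (Clec4a2, Cd209c, Clec4f, Clec1a, Clec18a and Clec4g). The other 18 genes averaged between 2.75 and 4.01 and were not tested. They included Clec1b, the podoplanin receptor of platelets, Clec14a, an endothelial gene, the secreted factor genes Clec11a, Clec3a and Clec3b, and 4 of the 6 Cd209 genes (Cd209b, Cd209d, Cd209e and Cd209g). Just inside the filter stood Clec4g, at 4.06, and just outside it Clec2m, at 4.01. Probe sets differ in how well they bind their target, so an intensity places a gene relative to the filter and does not rank transcripts between genes.

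**Figure D1:**
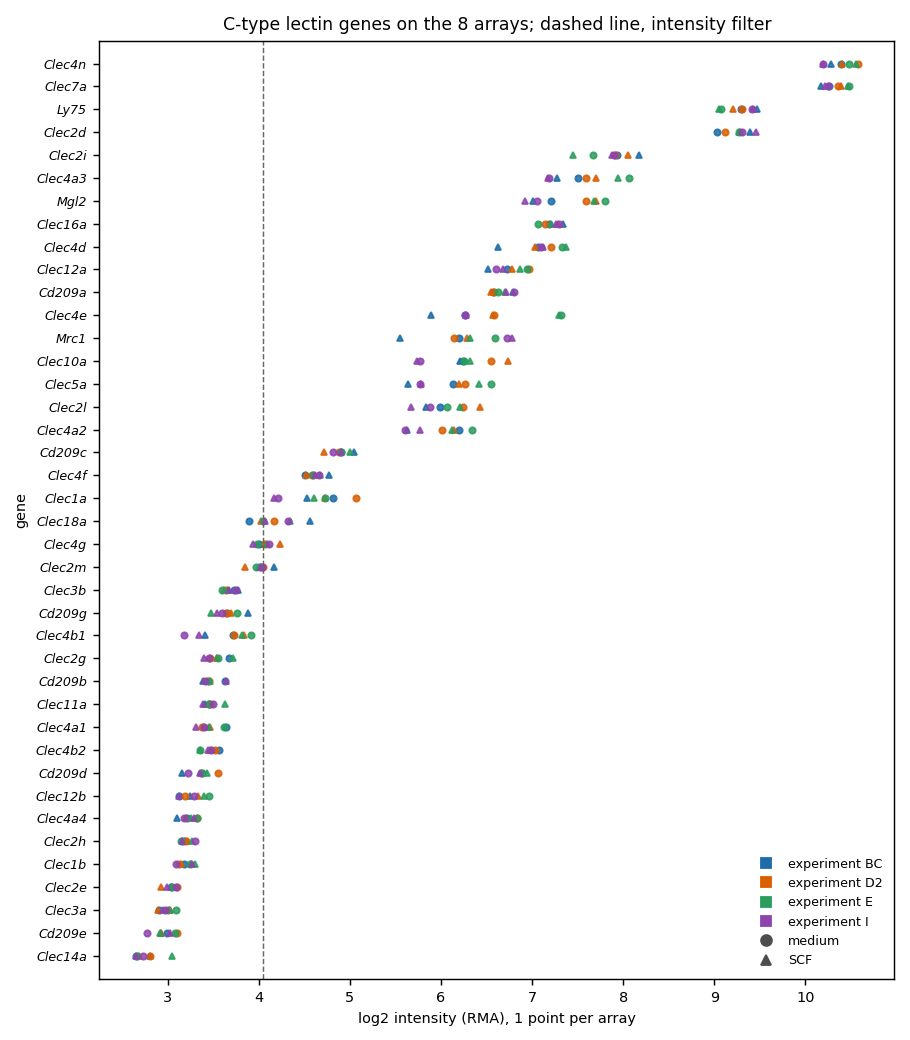
Log2 intensity of each of the 40 C-type lectin genes (rows) on the 8 arrays, coloured by experiment, with circles for medium and triangles for SCF; the dashed line is the intensity filter of 4.05. The 22 genes with a mean to the right of the line, from Clec4n at 10.38 down to Clec4g at 4.06, were tested, and Clec4e, Clec4a3, Mgl2 and Clec10a show the points of the experiments apart from each other.

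Many of these genes sit beside each other in the genome, and genes that reached the filter lay among genes that did not. In RefSeq order (assembly GRCm38.p6, used for the order of genes), 9 members lie in 1 run from Clec4a1 to Clec4e, with at most 10 other genes between neighbours. Of these 9, the 5 that reached the filter were Clec4a3, Clec4a2, Clec4n, Clec4d and Clec4e, while Clec4a1, Clec4a4, Clec4b1 and Clec4b2 stood between 3.23 and 3.62. The run from Clec2h to Clec7a held 11 members and also had 5 above the filter (Clec2i, Clec2d, Clec12a, Clec1a and Clec7a). In the run of 7 from Clec4g to Cd209g, 3 reached it, Clec4g, Cd209a and Cd209c. Mgl2 and Clec10a, neighbours that encode galactose-type lectins, both did.

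**Figure D2:**
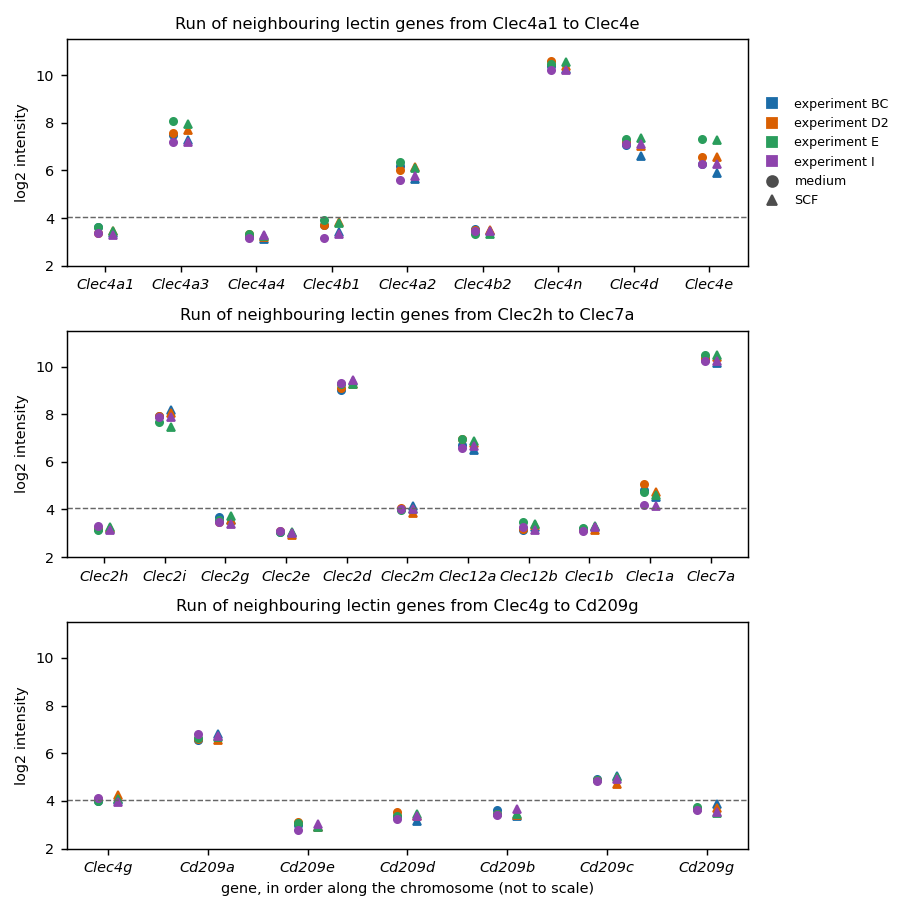
Log2 intensity on each array (circles medium, triangles SCF, coloured by experiment) for the members of the 3 longest runs of neighbouring lectin genes, in chromosome order; the dashed line is the filter of 4.05. Within each run, genes above the line, such as Clec4n at a mean of 10.38, lie among genes below it, such as Clec4b2 at 3.45.

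The 250 bases before the RefSeq start were at hand for 34 of the 40 genes, in 37 windows. They are shown for 3 genes that differed between the experiments (Clec4e, Clec4a3 and Mgl2) and, beside them, for Clec7a, whose experiment means lay within 0.26 of each other. Capitals mark the letters of 4 motifs searched on both strands. GAGGAA is the core of sites for the myeloid factor PU.1, TTGCNNAA a C/EBP motif and TGANTCA an AP-1 motif. ACGTG is a form of the core of the hypoxia response element bound by HIF, and other forms were not searched. The coordinates are those of GRCm38.p6, each sequence is read 5′ to 3′ on the strand of its gene, and the window with the later start coordinate is shown for Clec4a3 and Clec7a, which have 2 overlapping windows each.
Clec4e (chr6:123289872-123290121, minus strand): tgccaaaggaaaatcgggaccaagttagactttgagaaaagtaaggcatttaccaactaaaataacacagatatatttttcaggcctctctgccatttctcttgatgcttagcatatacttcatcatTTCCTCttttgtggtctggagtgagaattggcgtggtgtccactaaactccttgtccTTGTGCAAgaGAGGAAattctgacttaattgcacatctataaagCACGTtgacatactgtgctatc
Clec4a3 (chr6:122952394-122952643, plus strand): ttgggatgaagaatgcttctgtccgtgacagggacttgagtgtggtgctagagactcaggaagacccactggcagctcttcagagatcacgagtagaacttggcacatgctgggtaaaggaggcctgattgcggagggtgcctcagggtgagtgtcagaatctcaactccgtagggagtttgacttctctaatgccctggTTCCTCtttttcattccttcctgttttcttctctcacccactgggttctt
Mgl2 (chr11:70130107-70130356, plus strand): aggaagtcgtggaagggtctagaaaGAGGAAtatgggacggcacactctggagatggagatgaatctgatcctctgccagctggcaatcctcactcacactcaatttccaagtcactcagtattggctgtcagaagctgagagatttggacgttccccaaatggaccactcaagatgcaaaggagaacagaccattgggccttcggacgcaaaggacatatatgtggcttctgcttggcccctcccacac
Clec7a (chr6:129472786-129473035, minus strand): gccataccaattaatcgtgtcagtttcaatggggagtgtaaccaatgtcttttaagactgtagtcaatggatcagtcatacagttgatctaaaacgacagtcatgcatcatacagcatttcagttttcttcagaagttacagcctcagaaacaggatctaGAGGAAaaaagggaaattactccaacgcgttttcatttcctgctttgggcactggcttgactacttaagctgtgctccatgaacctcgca
The PU.1 core was present in 18 of the 37 lectin windows (48.65%) and in 23.25% of the 32851 windows of all genes. C/EBP letters stood in 6 lectin windows (16.2%, against 9.56% of all) and the AP-1 letters in 6 (16.2%, against 6.75%). The HIF letters ACGTG stood in 3 (8.11%, against 16.6%). Among the 4 genes shown, the Clec4e window held the PU.1 core 2 times and the C/EBP and HIF letters once each, and the other 3 windows held the PU.1 core once. The motifs can overlap each other, some windows overlap, and a match is a string of letters, not a bound site.

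Facts of the whole series bear on these results as follows. The arrays' median linear intensities ran from 13.3 to 13.9, and no library size exists for arrays, so their number limits the precision. Of the conventional dendritic cell markers fixed for this work, all 13 with a probe set of their own reached the filter (Itgax, the gene of CD11c, at 10.05), as did 10 of 11 macrophage markers. Of the neutrophil markers 3 of 11 did (Ly6g, Mmp8 and Cxcr2), and 1 of 5 B cell and 1 of 6 T and NK cell markers. In RNA from whole cultures, fewer cells of a type and less RNA per cell cannot be told apart. The design text calls the 4 experiments biological replicates without naming their mice. In the fits with experiment and treatment as terms, p-values rest on the spread left between these arrays, not on a spread between named mice.

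The clearest differences among these genes lay between the 4 experiments. A moderated F test in limma, with treatment as a term, called 5 of the 22 tested lectin genes at an adjusted p under 0.05 (Clec4e, Clec10a, Mgl2, Clec4a3 and Clec1a), beside 424 of all 12668 probe sets tested, or 3.35%. At an unadjusted p under 0.05 there were 14 of the 22, beside 24.2% of all probe sets. The distance between the highest and lowest experiment mean had a median of 0.42 (log2) over the 22 genes and of 0.20 over all probe sets tested. Experiment E had the highest mean for 9 of the 22 (40.9%, against 24.4% of all probe sets). Experiment I had the lowest for 9 (40.9%, against 28.8%). In the 2 related lists given below, E had the highest mean for 14 of 28 signalling genes and for 0 of 12 other lectin-like genes. Among the 424 probe sets called between experiments, 39.9% had their highest mean in E and 34.4% their lowest in I. The 2 arrays of an experiment share 1 preparation of cells, so the test sets the experiments against the spread within pairs, and mice, culture and handling cannot be told apart. How many lectin genes were called depended on the setting: none of 40 without an intensity filter, when 0 of 41345 probe sets were called and 3873 had an unadjusted p under 0.05, and 12 of 22 with a variance trend, when 12.1% of all were. The count was 5 without BC (1.17% of all probe sets called), 3 without D2 (0.868%), 1 without E (Clec10a, 0.30%) and 1 without I (Clec4e, 1.40%).

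**Figure D3:**
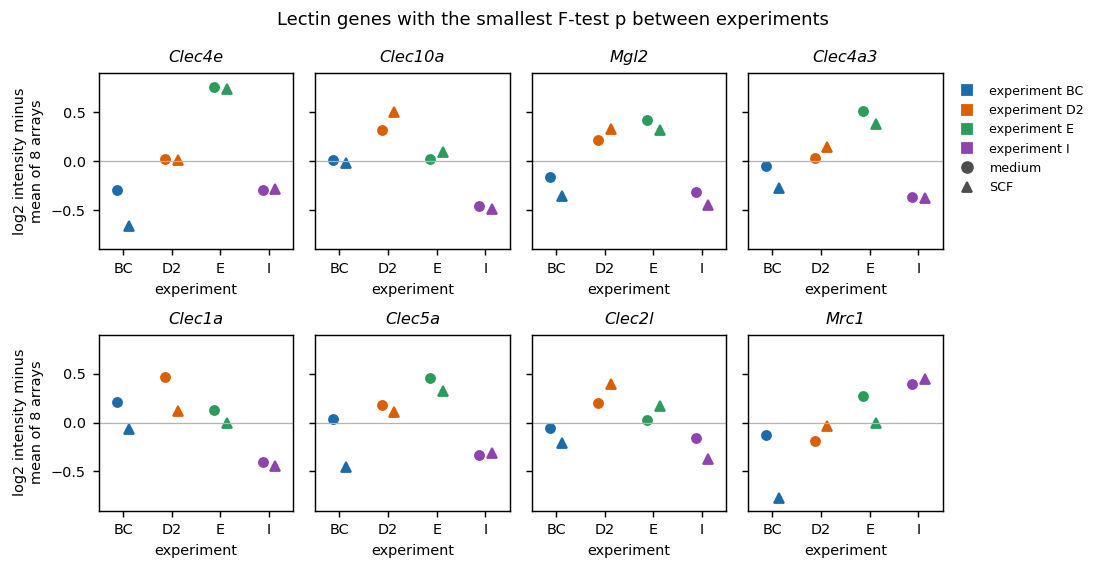
Log2 intensity minus the gene's mean over the 8 arrays, by experiment, for the 8 lectin genes with the smallest F-test p; circles are medium and triangles SCF. Both E arrays lie above the other 6 for Clec4e, Clec4a3 and Clec5a, both I arrays lie lowest for Clec10a and Clec1a, and Mrc1 is highest in I.

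Among the activating receptors, Clec4e, which encodes Mincle, the receptor for mycobacterial cord factor, differed most. Its log2 intensity in BC, D2, E and I was 6.26, 6.58, 7.32 and 6.26 in medium and 5.89, 6.58, 7.29 and 6.28 with SCF. Both E arrays were above all others, and the experiment means spanned 1.23 (2.34-fold, limma adjusted p = 0.0124). Without E the span was 0.50 and the call was lost (adjusted p = 0.136). Clec4d, which encodes its partner MCL, read 7.06, 7.20, 7.33 and 7.10 in medium and 6.62, 7.03, 7.37 and 7.12 with SCF. The E arrays were highest here too, with a span of 0.51 that was not called (limma adjusted p = 0.142) and was 0.24 without BC and 0.28 without E. Clec4n, which encodes Dectin-2, the receptor for fungal mannans, measured 10.39, 10.58, 10.48 and 10.20 in medium and 10.28, 10.40, 10.55 and 10.20 with SCF. Its span was 0.32 (limma adjusted p = 0.137), or 0.18 without I, where both arrays were lowest.

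Clec7a, the gene of the beta-glucan receptor Dectin-1, was read at 10.26, 10.35, 10.48 and 10.24 in medium and 10.17, 10.39, 10.47 and 10.22 with SCF. The E arrays were highest, with a span of 0.26 that was not called (limma adjusted p = 0.142) and was 0.16 without E. The median span over all probe sets tested was 0.20. Clec7a was called with a stricter intensity filter, the 75th percentile (limma adjusted p = 0.0423), and with a variance trend (limma adjusted p = 0.0107). Clec5a, whose product signals through the Tyrobp adaptor, measured 6.13, 6.27, 6.54 and 5.76 in medium and 5.63, 6.20, 6.42 and 5.78 with SCF. It had the same order of experiments as Clec4a3, with E highest and I lowest, and its span of 0.71 narrowly missed the threshold (limma adjusted p = 0.0531). That gene was called without BC (adjusted p = 0.0333), and its span was 0.46 without E. Clec1a, the gene of the fungal melanin receptor, stood at 4.81, 5.07, 4.73 and 4.21 in medium and 4.53, 4.72, 4.60 and 4.16 with SCF. Both I arrays were lowest, close above the filter of 4.05, and the span of 0.71 was called (limma adjusted p = 0.0337). Leaving out any 1 experiment ended that call, with adjusted p from 0.0506 without BC to 0.251 without I, where the span was 0.23.

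The DCIR group is named for an inhibitory receptor of dendritic cells. Its tested genes were Clec4a2, which encodes DCIR itself, and Clec4a3, from the same run of genes. Clec4a1 and Clec4a4 of that run, at 3.46 and 3.23, lay below the filter. Clec4a3 measured 7.50, 7.59, 8.07 and 7.18 in medium and 7.28, 7.70, 7.94 and 7.18 with SCF. Both E arrays were above and both I arrays below the remaining ones, with a span of 0.82 (1.77-fold, limma adjusted p = 0.0248). Without E the span was 0.46 (adjusted p = 0.132) and without I 0.61 (adjusted p = 0.0746). Clec4a2 stood at 6.19, 6.01, 6.34 and 5.61 in medium and 5.63, 6.14, 6.12 and 5.77 with SCF. Its arrays overlapped between experiments, and the span of 0.54 was not called (limma adjusted p = 0.225); without I it was 0.32. Clec12a, which encodes another inhibitory receptor, one that senses uric acid crystals, read 6.73, 6.96, 6.94 and 6.60 in medium and 6.51, 6.77, 6.86 and 6.68 with SCF. D2 and E were above BC and I throughout, with a span of 0.28 (limma adjusted p = 0.162).

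Sugar-binding endocytic receptors did not share 1 pattern. Mgl2, the gene of a lectin for galactose and N-acetylgalactosamine, measured 7.21, 7.59, 7.79 and 7.05 in medium and 7.01, 7.70, 7.68 and 6.92 with SCF. The D2 and E arrays were all above the BC and I arrays, and the experiment means spanned 0.75 (1.69-fold, limma adjusted p = 0.0183); without E the adjusted p was 0.0739 and without I 0.0537. Its neighbour and paralog Clec10a, which encodes MGL1, stood at 6.24, 6.55, 6.25 and 5.77 in medium and 6.21, 6.73, 6.32 and 5.74 with SCF. Here D2 was highest and I lowest, with BC and E between, and the span was 0.88 (1.84-fold, limma adjusted p = 0.0149). The span of Clec10a fell to 0.53 without D2 (adjusted p = 0.0509) and 0.42 without I (adjusted p = 0.0940).

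Mrc1, the gene of the mannose receptor CD206, ran the other way in experiment I. It measured 6.20, 6.14, 6.60 and 6.72 in medium and 5.55, 6.29, 6.32 and 6.77 with SCF. Both I arrays were highest and the BC array with SCF lowest, a span of 0.87 that was not called (limma adjusted p = 0.0911) and was 0.53 without BC. Ly75, the gene of the antigen uptake receptor DEC-205, read 9.30, 9.30, 9.07 and 9.41 in medium and 9.46, 9.20, 9.05 and 9.42 with SCF. In contrast to Clec4e, both E arrays were lowest, and the span was 0.35 (limma adjusted p = 0.118), or 0.16 without E. Clec2l measured 5.99, 6.24, 6.06 and 5.88 in medium and 5.83, 6.43, 6.21 and 5.67 with SCF. The D2 mean was highest and the I mean lowest, with a span of 0.56 (limma adjusted p = 0.0888) that was 0.36 without D2.

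Cd209a, a mouse relative of the human DC-SIGN gene, depended on the probe set. The brighter one measured 6.57, 6.58, 6.63 and 6.81 in medium and 6.79, 6.55, 6.70 and 6.71 with SCF. Its experiments overlapped, with a span of 0.19 (limma adjusted p = 0.499), or 0.10 without D2 and 0.12 without I. The other Cd209a probe set stood at 6.06, 6.95, 6.18 and 6.05 in medium and 5.83, 6.85, 6.01 and 6.19 with SCF. Both D2 arrays were highest there, and its span of 0.95 was called (limma adjusted p = 0.0171). Cd209c, the other gene with 2 probe sets, also differed between them, with spans of 0.17 and 0.57 (limma adjusted p = 0.494 and 0.0815).

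None of the remaining tested genes was called between experiments. Clec2d, which encodes the ligand Clr-b of an inhibitory natural killer cell receptor, had a span of 0.18 (limma adjusted p = 0.483), or 0.07 without I, while Clec2i, another ligand gene of that family, had 0.50 with E lowest (adjusted p = 0.109). Clec16a, Clec18a, Clec4g and Clec4f, the last a Kupffer cell gene, spanned between 0.08 and 0.14. Of the 18 untested genes the spans ran from 0.04 to 0.60, with a median of 0.14, and the widest was that of Clec4b1, which lay at 3.18 and 3.34 in experiment I and between 3.41 and 3.92 elsewhere. Clec4b1 was singled out after its values were seen.

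Markers of other cell types also moved between the experiments. The summed linear intensity of the 11 macrophage markers lay between 3532 and 3563 in E and between 2522 and 2976 in the other 3 experiments, with Adgre1 at a mean of 8.31 and C1qc below the filter. Of the 10 tested, Fcgr1, C1qb and Cd14 were called between experiments, beside 3.35% of all probe sets. Each had its highest mean in E, as did 39.9% of all probe sets called. Cd14 had means of 4.78, 5.29, 6.01 and 4.78 in BC, D2, E and I (limma adjusted p = 0.0124). The sum of the 6 monocyte markers ran from 228 to 285 in BC and from 365 to 375 in D2. In E it ran from 376 to 417 and in I from 323 to 326. Of the 5 tested, 3 were called between experiments, beside 3.35% of all probe sets. They did not share 1 order: Ly6c2 was highest in I, Ccr2 in E and F13a1 in D2. Plac8 lay below the filter. Neutrophil markers summed to between 923 and 953 in BC and between 1069 and 1195 elsewhere, a sum carried by Mmp8, at 9.90. Sums of the 13 conventional dendritic cell markers stayed between 9180 and 9688, and none of the 13 was called. Those sums were mostly carried by H2-Ab1, Ccr7, H2-Aa and Itgax, at 11.01, 10.83, 10.64 and 10.05, so dimmer markers could barely move them. Itgax, Zbtb46, Ciita and Batf3 had an unadjusted F-test p under 0.05, as did 24.2% of all probe sets. The mast cell and basophil markers summed to between 177 and 183 in D2 and 200 and 207 in E. The largest part of that sum was Kit, the gene of the SCF receptor, at 6.72. In I these markers summed to between 230 and 233 and in BC to between 237 and 243. Of the 3 tested, Kit and Cpa3 were called between experiments, with Kit highest in I and Cpa3 highest in BC. Fcer1a, Ms4a2, Mcpt8, Hdc and Prss34 lay below the filter. Of the 4 plasmacytoid dendritic cell markers tested, Spib was called, and Siglech lay below the filter. The part of these markers in the differences between lectin genes was not tested.

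**Figure D4:**
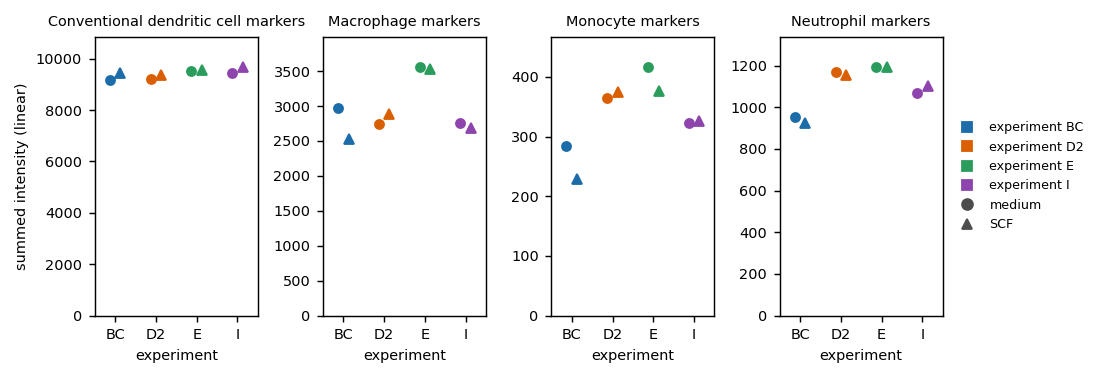
Summed linear intensity of the markers of 4 cell types on each array, by experiment (circles medium, triangles SCF), with axes from 0. The macrophage sum is highest in E (3532 to 3563), the monocyte sum lowest in BC (228 to 285), and the dendritic cell sum stays between 9180 and 9688.

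The study asked what 6 hours of SCF did to dendritic cells under low oxygen, and no lectin gene passed the test of SCF against medium. In the limma fit with experiment as a block, 0 of the 22 were called, beside 0% of the 12668 probe sets, and the adjusted p-values of the 22 ran from 0.945 to 0.998. At an unadjusted p under 0.05 there were 2 of 22, beside 4.21% of all. The same 2, Clec1a and Clec2d, were also the ones with the same sign in all 4 experiments, beside 12.9% of all probe sets. For 0 of the 22 did the 4 SCF arrays lie clear of the 4 medium arrays, beside 0.971% of all. The median log2 fold change was −0.01 over the 22 genes, 10 above 0 and 12 below, and 0.00077 over all probe sets. For each of the 22 genes the 95% interval stayed inside 1.5-fold up and 1.5-fold down. At that unadjusted threshold, leaving out 1 experiment gave 0 of 22 without BC (2.68% of all probe sets), 1 without D2 (Mgl2, 3.69%), 2 without E (Clec1a and Clec2d, 4.38%) and 3 without I (Clec12a, Clec1a and Clec5a, 5.64%).

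**Figure D5:**
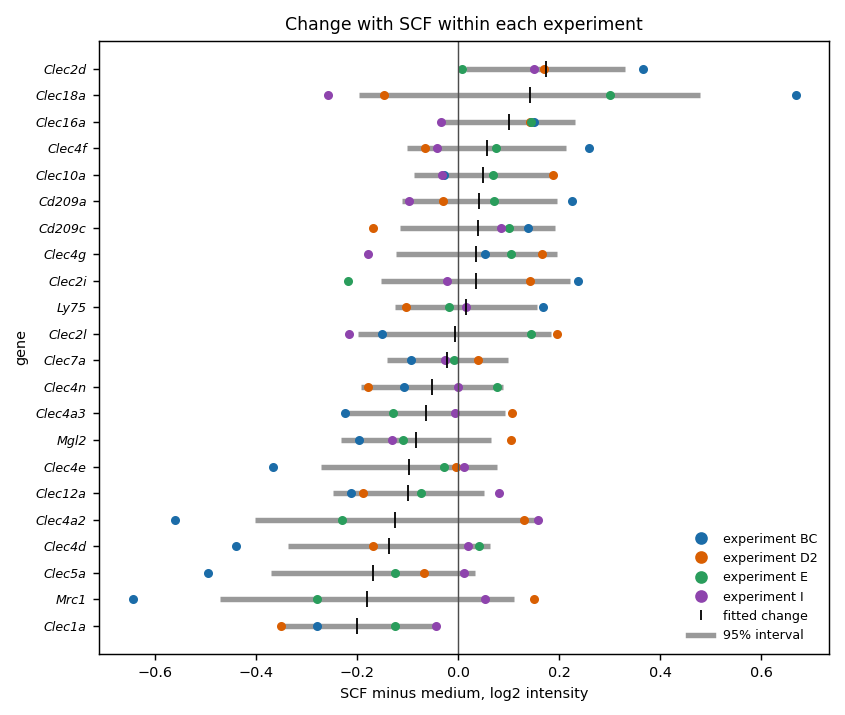
SCF minus medium difference in log2 intensity for the 22 tested genes, in each experiment (coloured points), with the fitted change (black tick) and its 95% interval (grey bar). The intervals of Clec2d and Clec1a alone miss 0, without adjustment for the number of probe sets, and the points farthest from 0 are those of experiment BC, from −0.64 for Mrc1 to 0.67 for Clec18a.

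The 3 members with the smallest unadjusted p on the upper side were Clec2d, Clec16a and Clec18a. Clec2d read 9.03, 9.11, 9.27 and 9.31 in medium (BC, D2, E and I) and 9.39, 9.28, 9.27 and 9.45 with SCF, or 9.18 ± 0.13 and 9.35 ± 0.09 (SD, n = 4 arrays each). The groups overlapped, and SCF minus medium was 0.36, 0.17, 0.01 and 0.15. The fitted value was 0.17 on the log2 scale (SE 0.07, limma adjusted p = 0.945), with a 95% interval from 0.02 to 0.33, and it was 0.11 without BC. Clec16a measured 7.18, 7.14, 7.07 and 7.30 in medium and 7.33, 7.28, 7.21 and 7.26 with SCF. It was higher in BC, D2 and E by 0.14 to 0.15 and lower in I, for a log2 fold change of 0.10 (SE 0.06, limma adjusted p = 0.945). Clec18a, close to the filter, stood at 3.89, 4.17, 4.05 and 4.32 in medium and 4.56, 4.02, 4.35 and 4.07 with SCF. Its value of 0.14 (SE 0.14, limma adjusted p = 0.949) rested on BC, without which it was −0.03; it was 0.24 without D2, 0.09 without E and 0.27 without I.

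On the lower side the 3 were Clec1a, Clec5a and Clec4d. For Clec1a, SCF minus medium was −0.28, −0.35, −0.13 and −0.04 in BC, D2, E and I, and the groups overlapped at 4.70 ± 0.36 in medium and 4.50 ± 0.24 with SCF (SD, n = 4 arrays each). Its fitted value of −0.20 (SE 0.07, limma adjusted p = 0.945) had a 95% interval from −0.35 to −0.05 and was the largest in size among the 22. Clec5a had −0.17 (SE 0.09, limma adjusted p = 0.945), made up of −0.50 in BC and between −0.13 and 0.01 in the other experiments, and was −0.06 without BC. Clec4d had −0.14 (SE 0.09, limma adjusted p = 0.945), with −0.44 in BC, and was −0.04 without it.

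For several myeloid receptor genes the widest gap between an SCF array and its medium array was in experiment BC. SCF minus medium there was −0.64 for Mrc1, −0.56 for Clec4a2 and −0.37 for Clec4e, and in the other experiments it lay between −0.28 and 0.15, −0.23 and 0.16, and −0.03 and 0.01. The fitted changes of these 3 genes were −0.18 (SE 0.12, 95% interval −0.47 to 0.11), −0.13 (SE 0.12) and −0.10 (SE 0.07), each with a limma adjusted p of 0.945. Without BC they were −0.03, 0.02 and −0.01, and without D2 Mrc1 was −0.29 and Clec4a2 −0.21, the latter −0.22 without I. The median size of the difference over the 22 genes, whatever its sign, was 0.23, 0.14, 0.10 and 0.04 (BC, D2, E, I), beside 0.10, 0.10, 0.08 and 0.08 over all probe sets tested. In the same BC pair the macrophage marker sum was 2976 in medium and 2522 with SCF, and the monocyte sum 285 and 228. The part of these markers in the BC difference was not tested.

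For 9 other genes given array by array above, the fitted changes were at most 0.10 in size on the log2 scale. They were −0.02 (SE 0.05, 95% interval −0.14 to 0.10) for Clec7a and −0.05 (SE 0.06, interval −0.19 to 0.09) for Clec4n. Ly75 had 0.02 (SE 0.06, interval −0.12 to 0.16), Mgl2 −0.08 (SE 0.06, interval −0.23 to 0.07), Clec10a 0.05 (SE 0.06, interval −0.09 to 0.19), Clec12a −0.10 (SE 0.06, interval −0.25 to 0.05) and Cd209a 0.04 (SE 0.07, interval −0.11 to 0.20). Clec4a3 was at −0.06 (SE 0.07) and Clec2l at −0.01 (SE 0.08). All 9 had limma adjusted p-values between 0.945 and 0.998. Leaving out BC turned Clec7a, Cd209a, Ly75 and Clec2l, to 0.0017, −0.02, −0.04 and 0.04, and brought Clec4n to −0.03, Mgl2 to −0.05, Clec10a to 0.07, Clec12a to −0.06 and Clec4a3 to −0.01. Without D2, Clec7a was −0.04, Clec4n −0.01, Mgl2 −0.15, Clec10a 0.0032, Cd209a 0.07, Ly75 0.05, Clec4a3 −0.12 and Clec2l −0.07. Without E, Clec4n was −0.10, Ly75 0.03, Clec4a3 −0.04 and Clec2l −0.06, and without I, Clec10a was 0.08, Clec12a −0.16, Cd209a 0.09 and Clec2l 0.06. The 18 genes below the filter had fitted changes between −0.10 and 0.09 when all probe sets were fitted.

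The signalling partners of these receptors were read in the same fits. Of 32 genes listed for lectin signalling, 28 had a probe set of their own and all 28 were tested, among them the adaptors Fcer1g, at a mean log2 intensity of 10.42, and Tyrobp, at 10.41, the kinase gene Syk, at 8.45, and Card9, at 7.79. For SCF against medium 0 of 28 were called, beside 0% of all probe sets, and the median was 0.0044, with 16 above and 12 below 0. An unadjusted p under 0.05 was found for 1 of 28, beside 4.21% of all. That gene was Relb, an NF-kB subunit gene, with a log2 fold change of 0.13 (SE 0.05, limma adjusted p = 0.945). Between experiments 1 of 28 was called (3.57%, near the 3.35% of all probe sets), again Relb, with means of 8.18, 7.71, 7.79 and 8.05 in BC, D2, E and I (limma adjusted p = 0.0452). Their median span between experiments was 0.23, near that of all probe sets (0.20).

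Genes of other proteins with a C-type lectin-like domain were also read. Of 44 listed, 41 had a probe set of their own and 12 reached the filter. With SCF 0 of 12 were called, beside 0% of all probe sets, and 9 lay below 0, beside 49.5% of all. An unadjusted p under 0.05 was found for 2 of 12, beside 4.21% of all. These were the scavenger receptor gene Colec12, at −0.17 (SE 0.06), and Olr1, the gene of the oxidised lipoprotein receptor LOX-1, at −0.13 (SE 0.05), each with a limma adjusted p of 0.945. The median span of the 12 between experiments was 0.39, near the 0.42 of the 22 lectin genes above. Between experiments 2 of 12 were called, beside 3.35% of all probe sets. Colec12 had means of 7.46, 7.63, 7.48 and 6.84 in BC, D2, E and I (limma adjusted p = 0.0201), and Klrk1, the gene of the receptor NKG2D, had 4.70, 4.64, 4.67 and 3.95 (adjusted p = 0.0412). Both were lowest in I, as Clec10a and Clec1a were. In I, Klrk1 read 4.05 in medium and 3.85 with SCF, around the filter of 4.05. Clec1a read 4.21 and 4.16 there, close above it.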

How the data were processed

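RNA of 4 medium and 4 SCF cultures was read on 1 Affymetrix whole-transcript array each. The deposited values are RMA intensities, per the submitters' processing notes, 1 for each probe set on each array. The sources used here do not state the RMA software, version or filters. The values are linear, so log2 of the deposited intensity was used as it stood, without a pseudocount or another normalization. Of 41345 probe sets, 23521 carry 1 symbol in the platform annotation, 1814 several and 16010 none here. Tested were the 12668 with a symbol and a mean log2 intensity of at least their median, 4.05.

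SCF was compared with medium by limma 3.58.1 in R 4.3.3 (lmFit, eBayes) with experiment as a fixed block, since the design text says that each batch of cells was split. Arrays of 1 experiment, after removal of group means, correlated at 0.46, 0.41, 0.42 and 0.36 (BC, D2, E and I). Experiments were compared by limma's moderated F test of their 3 coefficients with treatment as a term. Both tests used Benjamini-Hochberg adjustment over all probe sets tested and a threshold of 0.05. They were also run on simulated arrays with independent noise, without the correlation within experiments given above. No result here rests on that run. Intervals are at 95%.

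The members, the lists of signalling genes, related genes and markers, and the tests were chosen with earlier results of these data known. Array values were given for 13 genes named whatever their values (Clec9a, of these, has no probe set of its own), for the 3 tested members with the smallest unadjusted p in each direction with SCF, and for the 8 with the smallest F-test p. Promoter windows are from RefSeq, cut to the 250 bases before the start. Protein motifs were not analysed here. The alternatives were leaving out each experiment, other treatments of the block, 2 other array scalings, 2 other filters, a variance trend, the mean of a gene's probe sets and, between experiments, no treatment term.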

Additional observations from a re-analysis of the deposited data

Results flagged for a closer look

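Among 54 groups of 4 values checked for the named genes (medium arrays, SCF arrays and SCF minus medium differences), 2 had a value far from the other 3, where chance gives about 1 in 20 groups. The SCF minus medium difference of Clec4e was −0.37 in experiment BC and between −0.03 and 0.01 in D2, E and I. For Clec16a the difference was −0.033 in experiment I and between 0.14 and 0.15 in the others.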

How the results depend on the processing

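For SCF against medium, 0 probe sets and 0 lectin genes were called under every alternative run, including the fit with no replicate block (0 called, 125 probe sets at an unadjusted p under 0.05) and each experiment left out. The median change of the lectin genes stayed between −0.04 and −0.0024. Between experiments the counts depended on the setting. With no intensity filter 0 probe sets and 0 lectin genes were called of 41345 tested, with a stricter filter (the 75th percentile) 1396 and 10, and with a variance trend 1527 and 12. The stricter filter left 14 lectin genes and called 22.0% of all probe sets. Leaving out 1 experiment gave between 38 and 177 probe sets and between 1 and 5 lectin genes. The other scalings, the mean of probe sets and the fit with no treatment term gave 4 to 6 lectin genes. Some single-gene changes with SCF changed sign: Cd209a was −0.022 with the mean of its probe sets, and Ly75 −0.0037 with array medians equalized. Without 1 experiment, Clec7a ran from −0.042 to 0.0017, Clec4a2 from −0.22 to 0.020, Cd209a from −0.019 to 0.088, Ly75 from −0.035 to 0.055, Clec18a from −0.034 to 0.27 and Clec2l from −0.074 to 0.063. The cause of these shifts was not tested. No detection call exists, so signal over background is unknown for genes near the filter.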
